A study of Mus musculus with 24 samples.

Results

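The 10 genes described here encode matricellular proteins and close companions of theirs, and were followed through an RNA-seq study of mouse myoblasts: *Postn*, *Spon2*, *Spp1*, *Sparc*, *Thbs1*, *Thbs2*, *Tnc*, *Ccn1*, *Ccn2* and *Fn1*. They are 10 of the 55291 gene symbols in the count table, taken by name, and their rows were read over all 24 libraries. The list was chosen by earlier results of the same libraries, in which *Postn* and *Spon2* drew attention. The levels and differences of these 2 genes are therefore given as a description, with no test, and every count of genes that passed a test is over the other 8. All 10 genes passed the filter on low counts, except that *Spon2* did not pass it in the 6 libraries of the scr control.

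The cells were C2C12, an established line of mouse muscle precursors, in 4 derived lines that each carried a stable shRNA vector and had been selected as puromycin-resistant populations. The scr line carried a scrambled control shRNA. The other lines carried an shRNA against *Baf180* (gene *Pbrm1*), a subunit of the PBAF form of the SWI/SNF chromatin remodeler, against *Baf250a* (gene *Arid1a*), a subunit of the canonical BAF form, or against *Brd9*, a subunit of the noncanonical BAF form. Each line was kept for 48 h without added metal (NT), in CuSO4 at 100 µM or in ZnSO4 at 50 µM, and each of the 12 conditions had 2 independent biological replicates. The sample labels call the cells primary mouse myoblasts and name a Lipofectamine-mediated knockdown (KD), whereas the methods of the study describe C2C12 cells and lentiviral shRNA.

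Total counts ranged from 12719173 to 75179394 in 23 libraries, and *Baf250a* KD with Zn replicate 2 had 495778. The targeted genes were lower in their own KD line than in scr in every library: *Pbrm1* had a median of 59.6 CPM in *Baf180* KD against 157 in scr, *Arid1a* had 107 in *Baf250a* KD against 293, and *Brd9* had 16.4 in *Brd9* KD against 28.9 (CPM is the depth-scaled count, here with TMM factors). All 10 myoblast markers had a median of at least 1 CPM in scr, *Baf180* KD and *Brd9* KD, and 8 of 10 did in *Baf250a* KD, where *Pax7* and *Msc* were below it. The summed level of these markers had a median of 4411 CPM in scr, 2579 in *Baf180* KD, 1903 in *Baf250a* KD and 2820 in *Brd9* KD. The sum is mostly *Des*, *Itga7* and *Chrna1* (medians of 2043, 940 and 630 CPM in scr), which were lower in each KD line, as were *Myf5*, *Cdh15* and *Met*. *Vcam1* was higher in each, at 16.2 CPM in scr and 113, 132 and 49.8 in the KD lines. *Myod1*, *Pax7* and *Msc* were higher in some KD lines and lower in others. The summed level of 11 fibroblast markers moved against the myoblast sum, at 34.4, 113, 249 and 87.4 CPM in the same order of lines. Of the 11, only 4, 5, 6 and 5 had a median of at least 1 CPM. Most of the sum was *Cd34*, *Ly6a* and *Pdgfra* (17.2, 10.3 and 4.21 CPM in scr). *Thy1* had a median of 0 in every line, and *Dpt*, *Pi16*, *Lum* and *Clec3b* stayed below 1 CPM. Another order held for the summed level of 11 myotube markers. Its median was 98.3 CPM in scr, 157 in *Baf180* KD, 77.3 in *Baf250a* KD and 43.1 in *Brd9* KD. These markers did not move alike. *Acta1*, the largest in each line, had 56.1, 56.2, 31.6 and 21.9 CPM in that order, and *Myog* had 5.04, 28.4, 9.6 and 2.88. *Tnnt3* was lower in each KD line. In *Baf250a* KD, *Acta1*, *Mylpf*, *Tnnt3* and *Ckm* were lower than in scr. *Myog*, *Myh3*, *Myh8*, *Mymk*, *Mymx*, *Tnni1* and *Actn2* were higher there. The summed level of 8 immune or endothelial markers lay between 4.13 and 11.5 CPM in the 24 libraries. The part of these marker shifts in the results that follow was not tested, and in bulk RNA more cells of a type and more RNA per cell cannot be told apart.

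Matricellular proteins are secreted into the extracellular matrix, where they tune how cells attach, migrate and receive growth factors rather than bearing load. They act through integrins and proteoglycans, and many are produced in waves after muscle injury by myoblasts, fibroblasts and immune cells. Fibronectin, encoded by *Fn1*, is a structural glycoprotein of the matrix that many of them bind, and *Spon2* encodes mindin, a secreted matrix protein of the spondin family. Several of the genes are textbook targets of TGF-beta and of mechanical signals that act through YAP, TAZ and TEAD factors.

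The bases before the starts of 3 genes are shown: *Postn* and *Spp1*, whose metal responses spread most between lines among genes with a value in every line, and *Ccn1*, a textbook target of TEAD factors whose window holds their motif. RefSeq promoter windows on GRCm38.p6 were found for 6 of the 10 genes, in 9 windows, and the 250 bases before each start were searched on both strands. Capitals mark a match to the TATA box TATAAA, the motif of TEAD factors CATTCC, or the Runx motif TGTGGT, which is on the opposite strand in *Spp1*. No match overlapped another in the windows shown. *Postn* and *Spp1* each had another window, at a different start and with 0 matches, that is not shown.
Postn, chr3:54360857-54361106, plus strand: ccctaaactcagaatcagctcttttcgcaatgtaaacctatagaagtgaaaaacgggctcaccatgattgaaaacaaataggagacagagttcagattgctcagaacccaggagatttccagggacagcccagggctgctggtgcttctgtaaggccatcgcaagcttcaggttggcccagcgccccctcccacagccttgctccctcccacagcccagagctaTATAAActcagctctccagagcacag
Spp1, chr5:104434861-104435110, plus strand: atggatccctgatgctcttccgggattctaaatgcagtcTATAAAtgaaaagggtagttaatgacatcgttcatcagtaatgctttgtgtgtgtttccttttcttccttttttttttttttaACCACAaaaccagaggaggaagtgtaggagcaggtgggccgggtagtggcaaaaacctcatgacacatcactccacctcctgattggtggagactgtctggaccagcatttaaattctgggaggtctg
Ccn1, chr3:145649986-145650235, minus strand: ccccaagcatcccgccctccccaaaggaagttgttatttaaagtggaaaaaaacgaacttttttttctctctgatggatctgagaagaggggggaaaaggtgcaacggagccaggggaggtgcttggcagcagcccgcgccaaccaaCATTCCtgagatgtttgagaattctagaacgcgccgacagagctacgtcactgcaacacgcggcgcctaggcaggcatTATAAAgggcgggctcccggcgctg
In the windows shown, TATAAA lay 26 to 21 bases before the start of *Postn*, 25 to 20 before that of *Ccn1* and 211 to 206 before that of *Spp1*. Of all 32851 windows, 12.4% held it anywhere in the 250 bases on either strand, and the share at a given position was not counted. The TEAD motif lay 103 to 98 bases before the start of *Ccn1* (12.6% of all windows), and the Runx motif 128 to 123 bases before that of *Spp1* (14.0%). The core of the metal response element read by MTF1, TGCACNC or TGCGCNC, is held by 21.4% of all windows. Those letters were not in any of the 9 windows of these genes, nor were TGANTCA (AP-1 motif, 6.75% of all windows) and a CArG box (1.47%). *Spon2*, *Thbs1*, *Ccn2* and *Fn1* had no window.

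Scaled to exon length, *Fn1* was the most abundant of the 10 genes in scr, with a median of 1594 CPM per kilobase, followed by *Sparc* at 359. *Thbs1*, *Ccn2*, *Spp1*, *Ccn1* and *Tnc* lay between 261 and 172 CPM per kilobase. *Thbs2* stood at 29.8, *Postn* at 16.8 and *Spon2* at 0.0308. *Spp1* ranked first in *Baf180* KD, at 942 CPM per kilobase, and *Sparc* ranked first in *Baf250a* KD, at 865, just before *Thbs1* at 852. *Fn1* stayed first in *Brd9* KD, at 1121. The share of *Fn1* in the summed CPM of the 10 genes was 73.6% to 76.5% in the 6 scr libraries, 54.2% to 56.6% in *Baf180* KD, 40.8% to 46.6% in *Baf250a* KD and 63.8% to 66.6% in *Brd9* KD, so these ranges did not overlap.

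**Figure D1:**
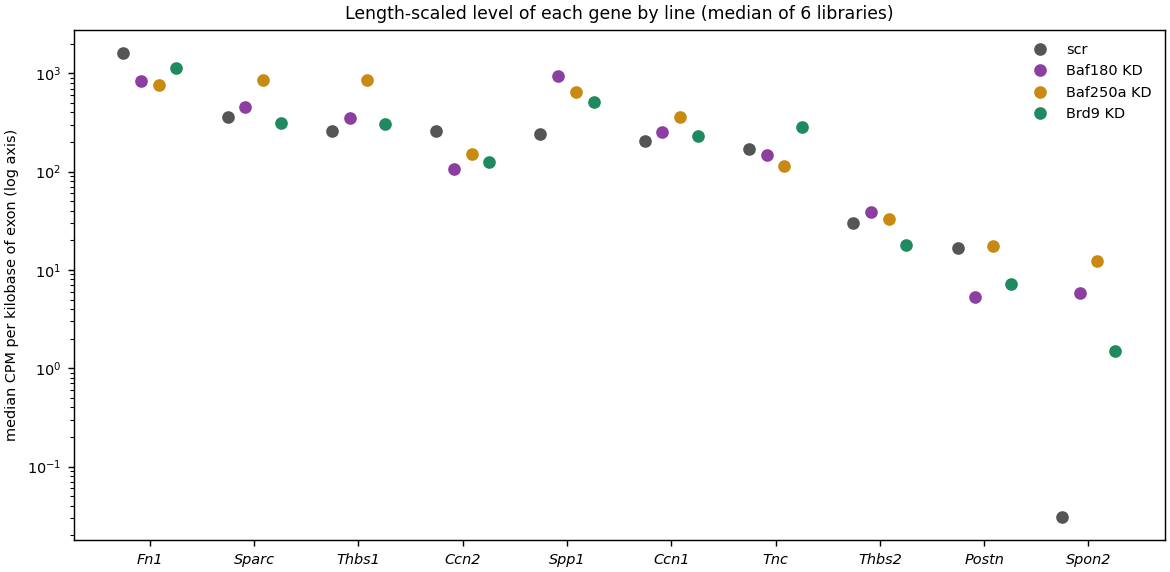
Length-scaled level of the 10 genes in each line, as the median CPM per kilobase of exon over 6 libraries on a log axis, with genes ordered by their level in scr. *Fn1* leads in scr at 1594, *Spp1* leads in *Baf180* KD at 942 and *Sparc* leads in *Baf250a* KD at 865, while *Spon2* is at 0.0308 in scr.

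Without added metal, the KD lines differed from scr in the makeup of the group. *Spp1* was higher in all 3 KD lines, *Ccn2* and *Fn1* were lower in all 3, and the remaining genes differed by line, with *Thbs1*, *Sparc* and *Ccn1* higher in *Baf250a* KD and *Tnc* lower in *Baf250a* KD but higher in *Brd9* KD. In *Baf180* KD, 5 of the 8 tested genes passed the test (edgeR, Benjamini-Hochberg adjusted p under 0.05), 3 higher and 2 lower, where 41% of all genes tested passed. In *Baf250a* KD, 8 of 8 passed, 5 higher and 3 lower, against 57.8% of all genes. In *Brd9* KD, 6 of 8 passed, 2 higher and 4 lower, against 29.2%. The median log2 fold change of the 8 genes was 0.19, 0.52 and -0.20 in the 3 KD lines, beside 0.03, 0.003 and 0.01 over all genes. The comparisons share the 2 untreated scr libraries. The scr line was the only control line sequenced, so a trait of that line and an effect of a knockdown cannot be told apart, also where all 3 KD lines differ alike. The tests measure the spread between replicate libraries of a line, not between independently derived lines.

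*Spp1* encodes osteopontin, a phosphoprotein that binds alpha-v integrins and CD44. Its level was 365 and 275 CPM in the untreated scr libraries, 1562 and 1822 in *Baf180* KD, 1259 and 1216 in *Baf250a* KD, and 832 and 864 in *Brd9* KD. Every KD library lay above both scr libraries. The log2 fold changes were 2.42 ± 0.155 (SE; adjusted p = 3.69e-07), 1.95 ± 0.129 (adjusted p = 5.96e-08) and 1.42 ± 0.139 (adjusted p = 0.000402). Over all 3 treatments the 6 libraries of each KD line also stayed above the 6 of scr, whose highest was 590 CPM, against a lowest of 1050, 869 and 594 in the KD lines.

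*Fn1* was lower in all 3 KD lines. It measured 18070 and 19190 CPM in untreated scr, 10510 and 10120 in *Baf180* KD, 8679 and 8992 in *Baf250a* KD, and 13400 and 12460 in *Brd9* KD. Neither scr library was reached by a KD library. The log2 fold changes were -0.84 ± 0.148 (adjusted p = 0.000995), -1.08 ± 0.104 (adjusted p = 2.12e-06) and -0.51 ± 0.11 (adjusted p = 0.0123).

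*Ccn2* encodes connective tissue growth factor, a matrix-bound regulator of TGF-beta signals. It stood at 694 and 806 CPM in untreated scr, 315 and 299 in *Baf180* KD, 413 and 553 in *Baf250a* KD, and 404 and 369 in *Brd9* KD. All 6 KD libraries fell below both scr libraries, by -1.27 ± 0.113 on the log2 scale in *Baf180* KD (adjusted p = 5.35e-06), -0.64 ± 0.134 in *Baf250a* KD (adjusted p = 0.00133) and -0.94 ± 0.102 in *Brd9* KD (adjusted p = 0.000624). *Ccn1* encodes its relative CYR61. It had 404 and 450 CPM in untreated scr and 636 and 767 in *Baf250a* KD, a log2 fold change of 0.72 ± 0.114 (adjusted p = 0.000157), and its fold changes in *Baf180* KD (0.16 ± 0.117, adjusted p = 0.286) and *Brd9* KD (-0.03 ± 0.0922, adjusted p = 0.806) did not pass the test.

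The thrombospondins inhibit blood vessel growth, and thrombospondin 1 also activates latent TGF-beta. *Thbs1* was at 1585 and 1582 CPM in untreated scr, 2265 and 1962 in *Baf180* KD, 4888 and 5473 in *Baf250a* KD, and 1856 and 1829 in *Brd9* KD. The rise was largest in *Baf250a* KD, with a log2 fold change of 1.71 ± 0.105 (adjusted p = 2.94e-08), against 0.43 ± 0.118 in *Baf180* KD (adjusted p = 0.0122). *Brd9* KD gave 0.24 ± 0.0901 (adjusted p = 0.0804). *Thbs2* was at 209 and 214 CPM in untreated scr, 283 and 269 in *Baf180* KD, 258 and 268 in *Baf250a* KD, and 140 and 123 in *Brd9* KD. It thus rose in *Baf180* KD (0.40 ± 0.0999, adjusted p = 0.00789) and *Baf250a* KD (0.31 ± 0.0974, adjusted p = 0.0148) and fell in *Brd9* KD (-0.67 ± 0.0956, adjusted p = 0.00232). Without *Baf180* KD NT replicate 1 the adjusted p rose to 0.0956 for *Thbs1* and 0.112 for *Thbs2*, the latter also lost its call without *Baf180* KD NT replicate 2 (0.0804), and in *Baf250a* KD it lost it without NT replicate 1 (0.0969) or 2 (0.137).

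*Sparc* encodes osteonectin, a collagen-binding protein, and *Tnc* encodes tenascin C, which opposes adhesion to fibronectin. *Sparc* stood at 1523 and 1626 CPM in untreated scr, 1910 and 1688 in *Baf180* KD, 3496 and 3041 in *Baf250a* KD, and 1275 and 1140 in *Brd9* KD. It rose by 1.05 ± 0.106 on the log2 scale in *Baf250a* KD (adjusted p = 3.2e-06) and fell by 0.37 ± 0.0943 in *Brd9* KD (adjusted p = 0.023), while *Baf180* KD gave 0.21 ± 0.116 (adjusted p = 0.174). The *Brd9* KD call was lost without that line's NT replicate 1 (adjusted p = 0.0501) or 2 (0.149). *Tnc* moved the other way in the same lines, from 1325 and 1444 CPM in untreated scr to 891 and 913 in *Baf250a* KD (-0.62 ± 0.0974, adjusted p = 0.000151) and 2426 and 2249 in *Brd9* KD (0.77 ± 0.0954, adjusted p = 0.00117). In *Baf180* KD it had 1156 and 1191 CPM, a log2 fold change of -0.22 ± 0.113 (adjusted p = 0.137).

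*Spon2* was near the limit of detection in scr. Its gene lies at chr5:33198184-33218455 (GRCm38, minus strand), and it had between 1 and 7 counts in each scr library, 19 counts of 203992137 over the 6. Untreated KD libraries had 386 and 456 counts in *Baf180* KD, 1011 and 814 in *Baf250a* KD, and 142 and 62 in *Brd9* KD, against 1 and 2 in untreated scr. As a ratio of depth-scaled sums this was 224, 481 and 74.9, given as a description. The scr side of each ratio rests on the same 3 counts, so the ratios are imprecise. In CPM the untreated libraries read 17.3 and 18.8, 39.1 and 38.3, and 7.49 and 4.19 in the same order of lines. *Spon2* was the lowest of the 10 genes per length in scr, *Baf250a* KD and *Brd9* KD.

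*Postn* encodes periostin, which binds collagen and integrins and is strongly produced by activated fibroblasts. It stood at 136 and 96.9 CPM in untreated scr, 73.9 and 87.6 in *Baf180* KD, 187 and 205 in *Baf250a* KD, and 68.4 and 74.7 in *Brd9* KD. Untreated, it was thus lowest in *Brd9* KD and *Baf180* KD and highest in *Baf250a* KD, with log2 fold changes against scr of -0.68 ± 0.162, -0.51 ± 0.157 and 0.75 ± 0.142. Its transcripts have a GC content of 36.3%, lower than in all but 0.708% of expressed genes, and the libraries differed in how counts moved with GC content. The 473 tested genes under 38% GC had a median log2 fold change of 0.85 between untreated *Baf250a* KD and scr, and once GC content and length were corrected for, the value of *Postn* there was -0.03 ± 0.0702. The same correction gave -1.17 ± 0.0721 in *Baf180* KD and -1.44 ± 0.0892 in *Brd9* KD. The order of *Postn* between scr and *Baf250a* KD therefore turned on this correction, and the lower values in the other KD lines did not.

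**Figure D2:**
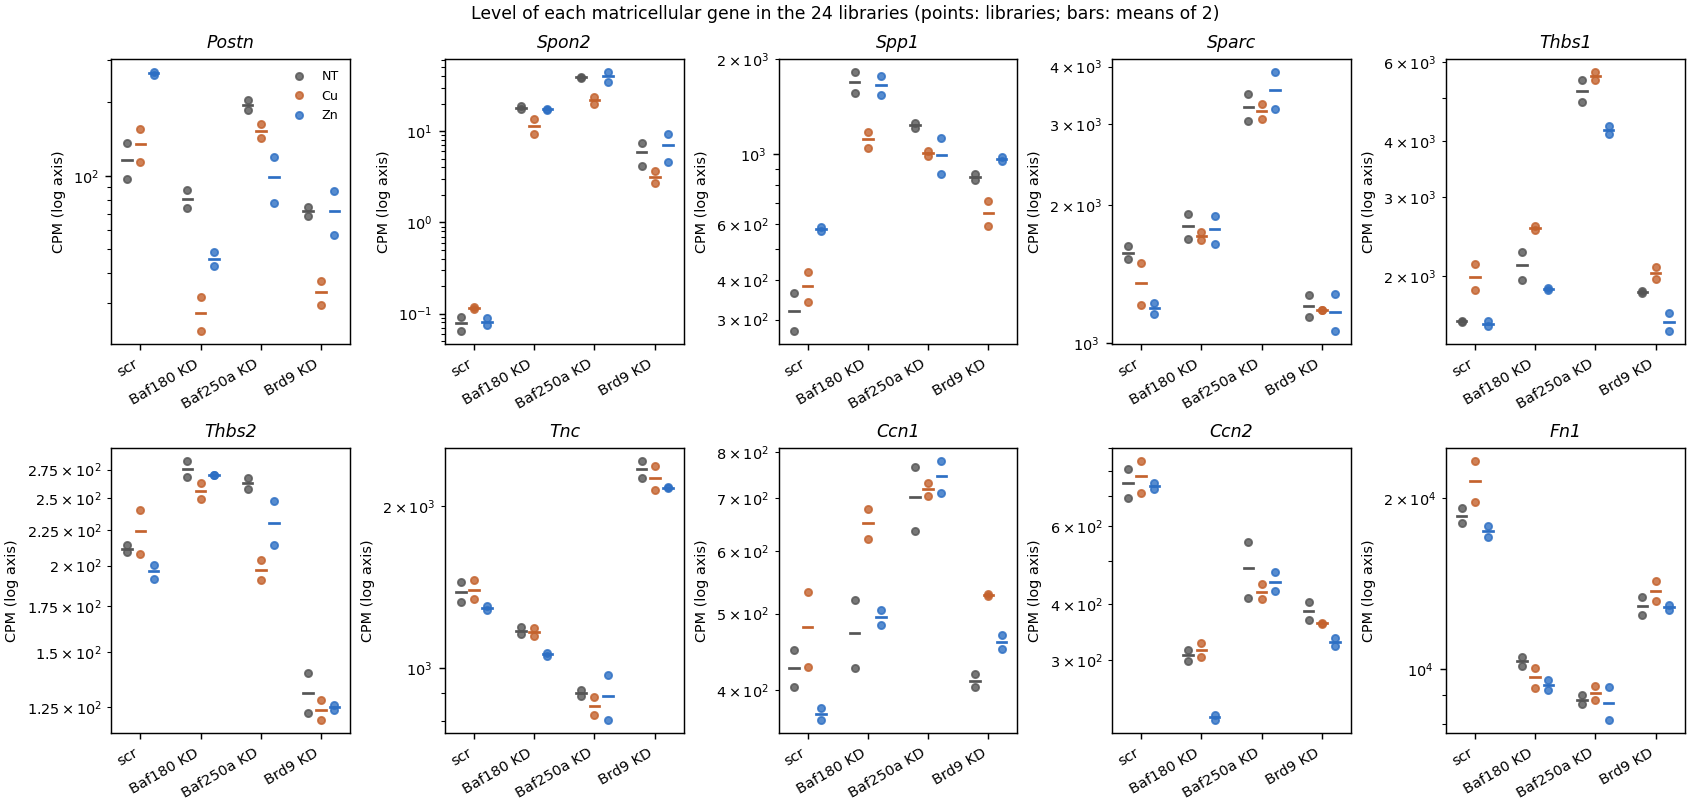
Level of each gene in CPM (log axis, its own range in each panel) in the 24 libraries, grouped by line and coloured by treatment, with a point for each library and a bar for the mean of 2. *Spp1* lies above every scr library in all KD libraries, *Fn1* and *Ccn2* lie below, and *Spon2* is at 0.119 CPM or less in scr.

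**Figure D3:**
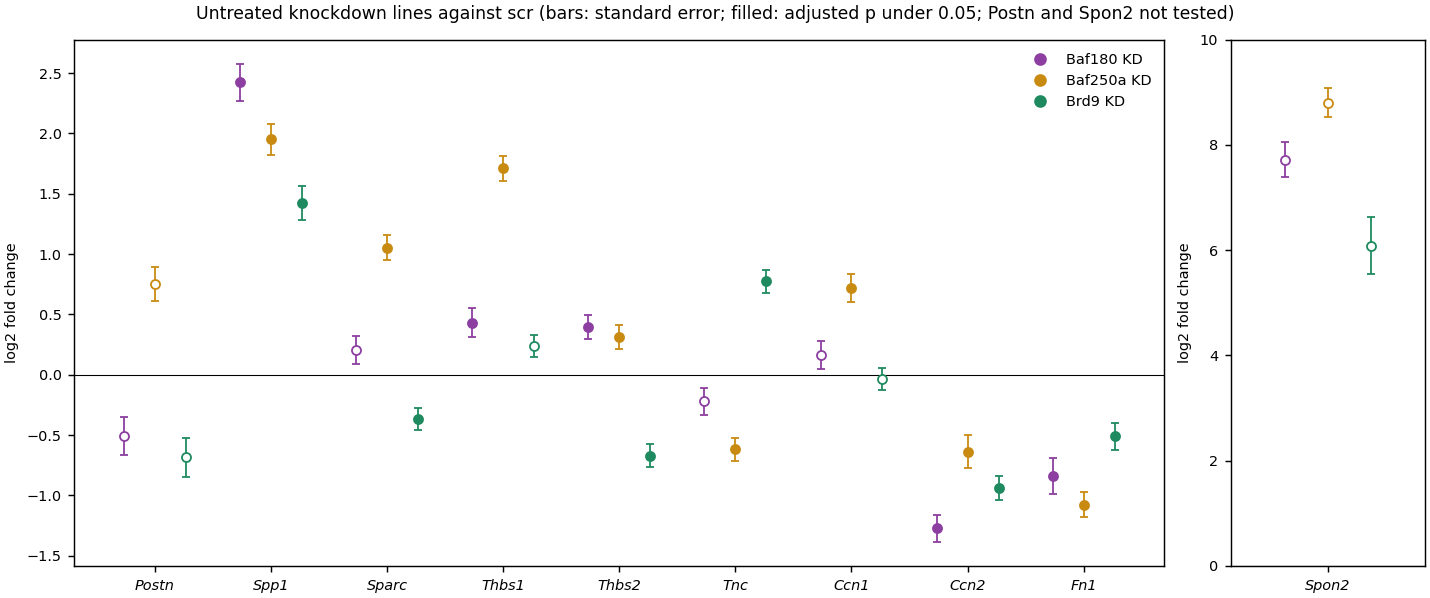
Log2 fold change of each gene between each untreated KD line and scr, with its standard error, from fits of 4 libraries, where filled points passed an adjusted p of 0.05 and *Postn* and *Spon2* were not tested. *Spp1* is above 0 and *Ccn2* and *Fn1* are below 0 in all 3 lines, and the separate panel for *Spon2* reaches 8.81.

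The KD lines were set against each other with the 3 treatments averaged, in a fit of all 24 libraries. Of the 8 tested genes, 7 differed between *Baf180* KD and *Baf250a* KD (45.1% of all genes), 8 between *Baf180* KD and *Brd9* KD (37.5%) and 8 between *Baf250a* KD and *Brd9* KD (54.5%). *Spp1* was ordered *Baf180* KD, *Baf250a* KD, *Brd9* KD from high to low, with steps of 0.44 ± 0.0812 and 0.41 ± 0.0813 on the log2 scale. *Ccn2* had another order, with *Baf250a* KD above *Brd9* KD by 0.34 ± 0.068 and *Baf180* KD below *Brd9* KD by -0.36 ± 0.067. *Thbs1* and *Sparc* were highest in *Baf250a* KD, with *Baf180* KD lower by -1.20 ± 0.0589 and -0.93 ± 0.0737. *Tnc* was highest in *Brd9* KD, with *Baf250a* KD lower by -1.36 ± 0.0573. The one pair that did not pass was *Fn1* between *Baf180* KD and *Baf250a* KD, at 0.14 ± 0.0665 (adjusted p = 0.0959), and it passed without scr Cu replicate 1 (adjusted p = 0.048), scr Cu replicate 2 (0.049) or the shallow library (0.0362), and after the GC correction (0.20 ± 0.057, adjusted p = 0.00711). *Ccn1* lost its call between *Baf180* KD and *Brd9* KD (0.20 ± 0.0653, adjusted p = 0.0189) without *Baf180* KD NT replicate 1 (0.0895) or Cu replicate 1 (0.0609), and after the GC correction (0.14, adjusted p = 0.0556). As a description, *Postn* was higher in *Baf250a* KD than in *Brd9* KD by 1.42 ± 0.121 on the log2 scale, and by 1.51 ± 0.0648 after the GC correction.

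Cu addressed whether an excess of the metal changes these genes in each line. In scr, 0 of the 8 tested genes passed with edgeR (0.0333% of all genes) and 0 with DESeq2 (0.479%). An unadjusted p under 0.05 was held by 1 of 8, as by 1559 of all 15002 genes. In *Baf180* KD, 2 of 8 passed (13.8% of all genes). *Spp1* fell from 1562 and 1822 CPM to 1050 and 1179, a log2 fold change of -0.64 ± 0.126 (adjusted p = 0.0143). *Ccn1* rose from 520 and 427 CPM to 679 and 622, by 0.43 ± 0.0986 (adjusted p = 0.023). The groups did not overlap for either gene. Both calls were lost without *Baf180* KD NT replicate 2 (adjusted p = 0.123 for *Spp1* and 0.205 for *Ccn1*) and without Cu replicate 1 (0.113 and 0.15), and that of *Ccn1* after the GC correction (0.0738).

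In *Baf250a* KD with Cu, 1 of 8 passed (1.27% of all genes): *Thbs2* fell from 258 and 268 CPM to 204 and 191, by -0.42 ± 0.0911 (adjusted p = 0.0153). This call was lost in DESeq2 (adjusted p = 0.153) and without any one of the NT or Cu libraries of the line (0.116 to 0.547). *Spp1* was lower there too, at 992 and 1023 CPM with Cu against 1259 and 1216 (-0.30 ± 0.111, adjusted p = 0.284), and passed once Zn replicate 1 (adjusted p = 0.016) or the shallow Zn replicate 2 (adjusted p = 0.0169) was left out of the fit. In *Brd9* KD with Cu, 0 of 8 passed with edgeR (0.274% of all genes). An unadjusted p under 0.05 was held by 2 of 8, against 2426 of all 14978 genes. With DESeq2, 2 of 8 passed (1.68% of all genes). These were *Spp1*, at 712 and 594 CPM with Cu against 832 and 864 (edgeR -0.43 ± 0.0956, adjusted p = 0.123, DESeq2 -0.42, adjusted p = 0.00801), and *Ccn1*, at 527 and 530 against 419 and 404 (edgeR 0.31 ± 0.0644, adjusted p = 0.103, DESeq2 0.32, adjusted p = 0.0187).

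*Postn* and *Spon2* were both lower with Cu in each KD line, as a description. *Postn* had 23.0 and 31.8 CPM with Cu in *Baf180* KD, a log2 fold change of -1.59 ± 0.158, and 37.2 and 29.7 CPM in *Brd9* KD, a change of -1.15 ± 0.199. In *Baf250a* KD it had 163 and 143 CPM with Cu (-0.35 ± 0.0992), and in scr 114 and 156 CPM (0.23 ± 0.205), where the groups overlapped. After the GC correction the values were -1.06 ± 0.0903, -0.76 ± 0.0938, -0.26 ± 0.0735 and -0.13 ± 0.0903 in the same order of lines. *Spon2*, whose transcripts have a GC content of 56.5%, had 13.5 and 9.32 CPM with Cu in *Baf180* KD, 23.7 and 19.9 in *Baf250a* KD, and 2.67 and 3.63 in *Brd9* KD. Its log2 fold changes were -0.70 ± 0.167, -0.83 ± 0.113 and -0.95 ± 0.352, and every Cu library lay below both NT libraries of its line. After the GC correction they were -0.92 ± 0.153, -0.82 ± 0.106 and -1.04 ± 0.307.

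With Zn, *Spp1* rose in scr from 365 and 275 CPM to 570 and 590, by 0.94 ± 0.17 on the log2 scale (adjusted p = 0.0275), the 1 of 8 genes that passed there (17.6% of all genes). The 2 Zn libraries lay above both NT libraries. The call was lost without scr NT replicate 2 (0.73, adjusted p = 0.177), Zn replicate 1 (0.97, adjusted p = 0.128) or Zn replicate 2 (0.91, adjusted p = 0.192), and the GC correction gave 0.66 ± 0.119 (adjusted p = 0.0499), where 1.29% of all genes passed. In *Baf180* KD, 0 of 8 passed with edgeR (0.0197% of all genes). An unadjusted p under 0.05 was held by 1 of 8, as by 1999 of all 15241 genes. With DESeq2, 1 of 8 passed (0.905% of all genes). That gene was *Ccn2*, at 226 and 220 CPM with Zn against 315 and 299 without (edgeR -0.48 ± 0.0779, adjusted p = 0.132, DESeq2 adjusted p = 0.000215), and its groups did not overlap. In *Baf250a* KD 0 of 8 passed with edgeR (15.9% of all genes) and 0 with DESeq2 (3.16%). An unadjusted p under 0.05 was held there by 2 of 8, as by 4263 of all 14706 genes. In *Brd9* KD 0 of 8 passed with edgeR (0.0334% of all genes) and 0 with DESeq2 (0.037%). An unadjusted p under 0.05 was held there by 3 of 8, against a smaller share of all genes, 451 of 14978. Without the shallow library, the Zn change in *Baf250a* KD was -0.27 for *Thbs1* and -0.15 for *Spp1*. Without Zn replicate 1 that of *Spp1* was -0.49, a value that rests on the shallow library as the only Zn library left. *Sparc* was lower with Zn in scr, at 1224 and 1160 CPM against 1523 and 1626 (-0.31 ± 0.108, adjusted p = 0.0825). The change was -0.33 without scr Cu replicate 1 and -0.31 without replicate 2. After the GC correction it was -0.06 ± 0.0689 (adjusted p = 0.643).

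*Postn* with Zn went in opposite directions between lines. It had 260 and 267 CPM in scr, a log2 fold change of 1.26 ± 0.206, 42.8 and 48.8 CPM in *Baf180* KD (-0.83 ± 0.156), 120 and 77.8 in *Baf250a* KD (-0.79 ± 0.117) and 57.0 and 86.6 in *Brd9* KD (-0.005 ± 0.195). The value of 77.8 CPM comes from the shallow library and rests on 40 counts, and without it the *Baf250a* KD change was -0.72. Genes under 38% GC moved alike: their median log2 fold change with Zn was 1.17 in scr, -0.36 in *Baf180* KD, -0.73 in *Baf250a* KD and -0.04 in *Brd9* KD. With GC content and length corrected for, *Postn* gave 0.18 ± 0.0894 in scr, -0.45 ± 0.09 in *Baf180* KD, -0.16 ± 0.089 in *Baf250a* KD and 0.02 ± 0.092 in *Brd9* KD. *Spon2* with Zn had 17.2 and 17.7 CPM in *Baf180* KD, 44.4 and 35.0 in *Baf250a* KD and 9.29 and 4.63 in *Brd9* KD, and the Zn and NT libraries overlapped in each line. Its log2 fold changes were -0.07 ± 0.168, 0.17 ± 0.129 and 0.26 ± 0.338.

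**Figure D4:**
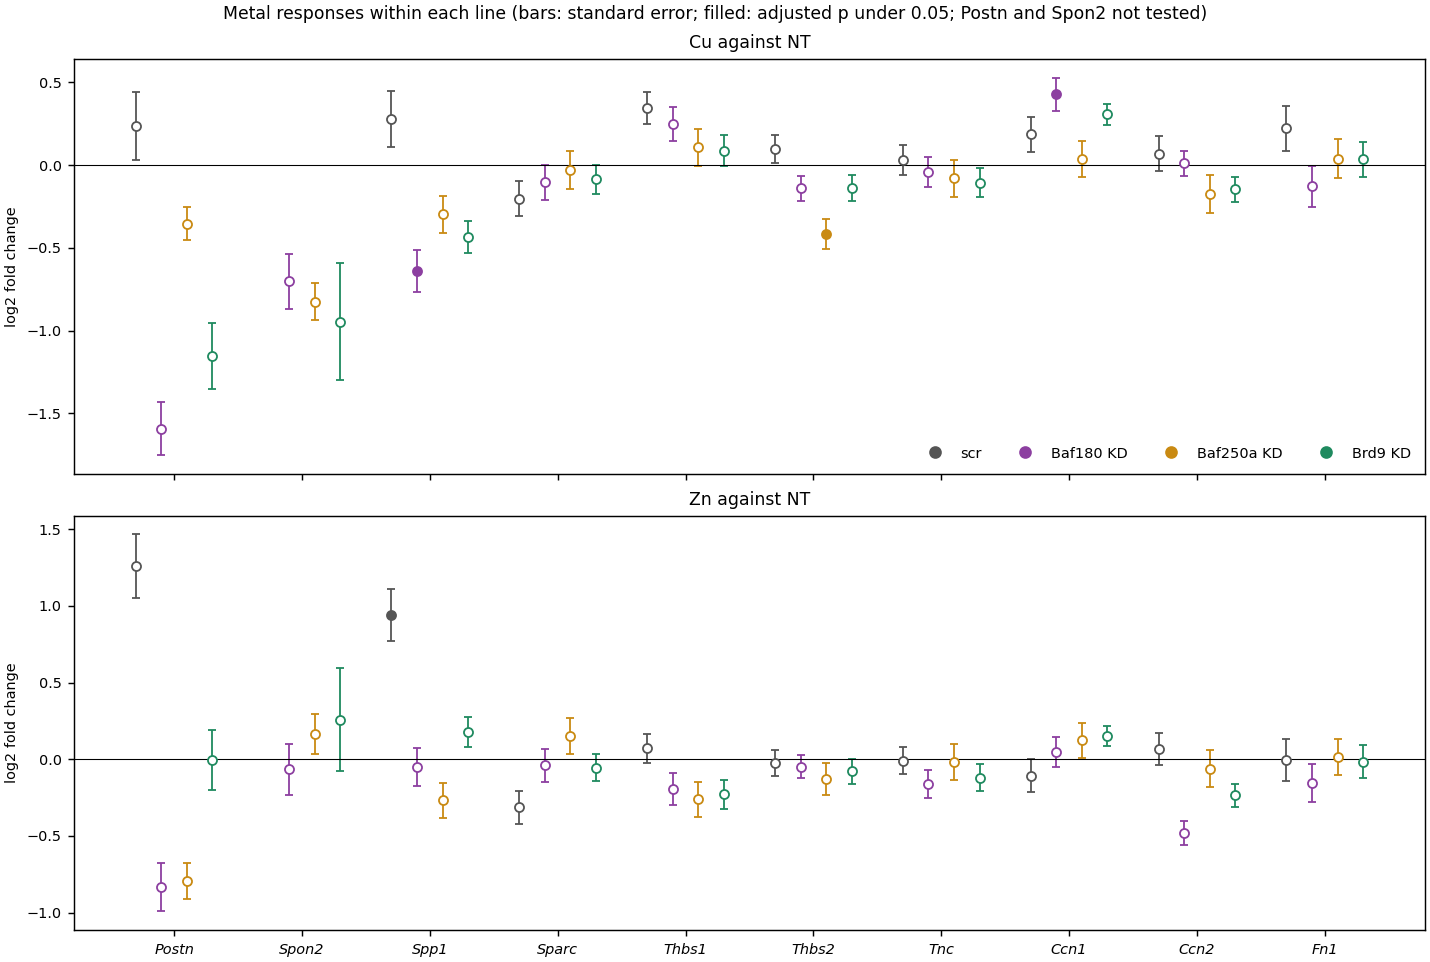
Log2 fold change of each gene with Cu (top) and Zn (bottom) against NT in each line, with its standard error, from fits of the 6 libraries of a line, where filled points passed an adjusted p of 0.05, *Postn* and *Spon2* were not tested, and *Spon2* has no value in scr. *Spp1* and *Postn* spread most between lines, with *Postn* at 1.26 in scr and -0.83 in *Baf180* KD with Zn, while *Tnc* and *Fn1* lie between -0.16 and 0.22.

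**Figure D5:**
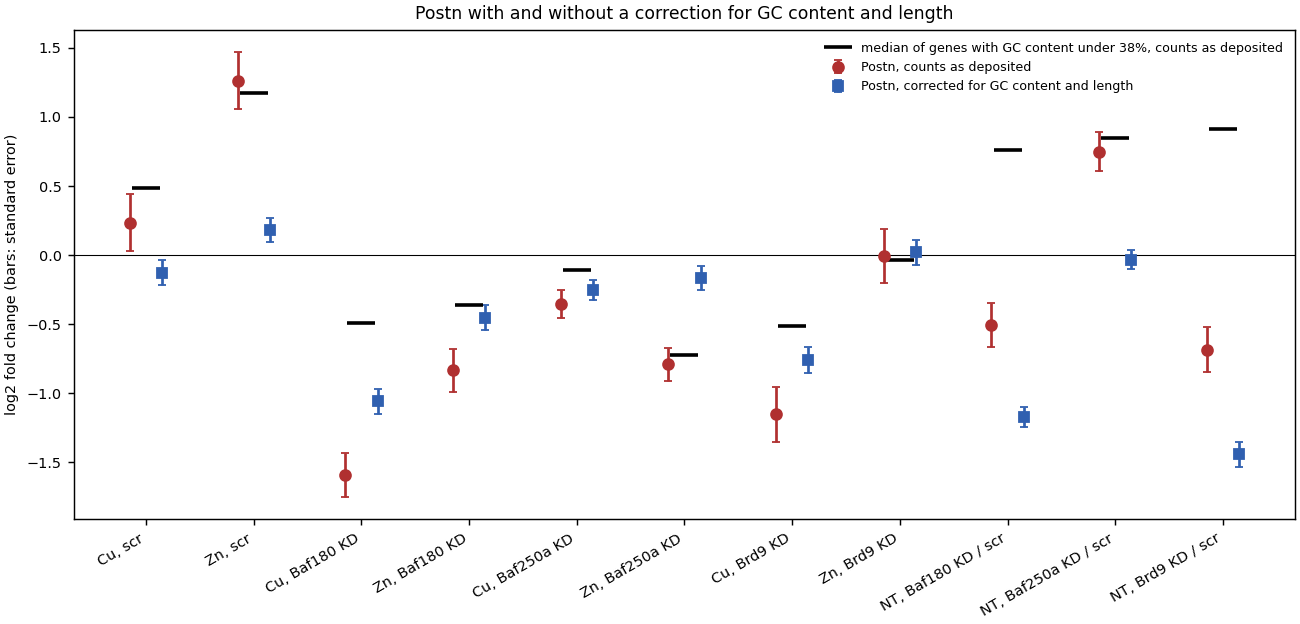
Log2 fold change of *Postn* with its standard error in the metal responses and in untreated KD against scr, from the counts as deposited (circles) and with GC content and length corrected for (squares), with the median of genes under 38% GC as a black bar. The Zn response in scr goes from 1.26 to 0.18, the Cu response in *Baf180* KD from -1.59 to -1.06.

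The difference between the metal response of a KD line and that of scr was tested in the fit of all 24 libraries, in comparisons that share the scr libraries. For Cu, 1 of 8 genes differed in *Baf180* KD (12.8% of all genes): *Spp1*, at -0.87 ± 0.198 (adjusted p = 0.0119). For *Baf250a* KD 0 of 8 differed with edgeR (0.0121% of all genes) and 1 with DESeq2 (0.115%). An unadjusted p under 0.05 was held there by 2 of 8, against a smaller share of all genes, 1274 of 16524. For *Brd9* KD 0 of 8 differed with edgeR (0.0363% of all genes) and 0 with DESeq2 (0.301%). An unadjusted p under 0.05 was held there by 1 of 8, as by 2759 of all 16524 genes. The value of *Spp1* was -0.56 ± 0.198 (adjusted p = 0.582) for *Baf250a* KD and -0.64 ± 0.198 (adjusted p = 0.239) for *Brd9* KD. For Zn, *Spp1* differed from scr in all 3 KD lines, by -0.89 ± 0.198 in *Baf180* KD (adjusted p = 0.00308), -1.15 ± 0.2 in *Baf250a* KD (adjusted p = 0.000456) and -0.67 ± 0.198 in *Brd9* KD (adjusted p = 0.039). *Ccn2* was the other gene of 2 in *Baf180* KD (28.7% of all genes), at -0.44 ± 0.164 (adjusted p = 0.0481). *Sparc* was the other of 2 in *Baf250a* KD (30.5%), at 0.53 ± 0.179 (adjusted p = 0.0302). In *Brd9* KD *Spp1* was the 1 gene (11.1%). After the GC correction the Zn differences of *Spp1* were -0.50, -0.68 and -0.37 (adjusted p = 0.0282, 0.00291 and 0.185), and that of *Sparc* was 0.13 (adjusted p = 0.596). With that correction the share of all genes that passed was 8.67%, 17.1% and 0.0847% for the Zn differences and 2.17% for the Cu difference of *Baf180* KD. The Zn difference of *Ccn2* lost its call in 17 of 24 refits that each left out 1 library (adjusted p up to 0.167, without scr NT replicate 1).

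Of 29 relatives of these proteins (other thrombospondins, CCN proteins, fibulins, SPARC family members, tenascins and galectins), 16 were expressed highly enough to be tested in untreated *Baf180* KD against scr, and 8 were higher and 2 lower. In *Baf250a* KD 16 of 19 were higher and 3 lower, and in *Brd9* KD 6 of 14 were higher and 2 lower, against the shares of all genes given above. Some passed the filter only through the KD line, and had to differ. *Ccn5*, a CCN protein without the C-terminal domain of the others, was at a mean of 0.189 CPM in scr and at 9.99, 23.3 and 2.06 in *Baf180*, *Baf250a* and *Brd9* KD. *Smoc2*, a SPARC relative of basement membranes, had 0.757 CPM in scr and 7.20, 60.7 and 2.88 in the KD lines. *Ccn3* fell with Cu in *Baf180* KD (-0.78 ± 0.123, adjusted p = 0.00778) and in *Baf250a* KD (-0.83 ± 0.0939, adjusted p = 5.32e-06).

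Receptors for these proteins moved in both directions. Of 27 integrin chains and other receptors, 11 of 21 tested were higher and 4 lower in *Baf180* KD, 10 of 21 higher and 8 lower in *Baf250a* KD, and 5 of 20 higher and 3 lower in *Brd9* KD. Over all genes, 21.7% were higher and 19.3% lower in *Baf180* KD, 28.9% higher and 28.9% lower in *Baf250a* KD, and 15.1% higher and 14.1% lower in *Brd9* KD. *Itgb3*, the integrin beta chain that pairs with alpha-v to bind osteopontin, rose in all 3 lines, from a mean of 15.3 CPM to 59.4, 70.8 and 27.5. *Itgb6* fell in *Baf180* KD (-1.94 ± 0.237, adjusted p = 6.75e-05) and *Brd9* KD (-1.17 ± 0.24, adjusted p = 0.0104). With Zn, *Itgb8* rose in scr (1.07 ± 0.191, adjusted p = 0.0275) and fell in *Baf250a* KD (-0.81 ± 0.154, adjusted p = 0.000861). These 2 values are not corrected for GC content, and genes under 38% GC had medians of 1.17 and -0.73 in the same comparisons.

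Among 30 regulators of these genes, 29 were tested, and 16 were higher and 4 lower in *Baf180* KD, 16 higher and 6 lower in *Baf250a* KD, and 7 higher and 2 lower in *Brd9* KD. The 9 of 29 in *Brd9* KD lie close to the 29.2% of all genes that passed there, and the shares in the other lines were 41% and 57.8%. *Egr1*, an early growth response factor, rose from 26.0 CPM in scr to 163, 99.3 and 60.6 in the untreated KD lines, and *Atf3*, a stress-induced factor, fell from 72.8 to 21.3, 5.41 and 28.8. *Tgfb3*, a TGF-beta ligand, had 78.7 CPM in scr and 407 in *Baf250a* KD (2.37 ± 0.107, adjusted p = 1.51e-09). *Tead1* and its partner gene *Vgll3* rose with Zn in scr (0.50 ± 0.0915 and 0.61 ± 0.146, adjusted p = 0.0275 and 0.0339) and fell with Zn in *Baf250a* KD (-0.41 ± 0.113 and -0.53 ± 0.106, adjusted p = 0.0153 and 0.00143). Their differences between these lines were -0.82 ± 0.134 and -1.08 ± 0.19 (adjusted p = 0.00031 and 0.000495). Genes under 38% GC moved in the same directions in these comparisons, with medians of 1.17, -0.73 and -2.02. The values of *Tead1* and *Vgll3* are not corrected for GC content, and the *Baf250a* KD libraries include the shallow one. With the correction, the share of all genes that passed for Zn in scr was 1.29%, against 17.6% without it.

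Of 17 genes that cut or cross-link the matrix, 15 were tested, and 7 were higher and 3 lower in *Baf180* KD, 10 higher and 2 lower in *Baf250a* KD, and 4 higher and 5 lower in *Brd9* KD, beside 41%, 57.8% and 29.2% of all genes in either direction. *Mmp2*, a gelatinase, rose in all 3 lines from a mean of 26.4 CPM to 137, 352 and 115. *Lox*, the copper-dependent enzyme that cross-links collagen and elastin, rose from 150 CPM to 579, 1179 and 361. *Timp3*, a matrix-bound inhibitor of metalloproteases, rose from 72.7 CPM to 191 in *Baf180* KD and 738 in *Baf250a* KD. *Htra1* fell in *Brd9* KD from 222 CPM to 98.1 (-1.16 ± 0.105, adjusted p = 0.000269).

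Over the means of the 12 conditions, the genes of the group fell into patterns that are given as a description, since the points are 4 lines of 3 treatments each. *Sparc* and *Thbs1* had a Pearson r of 0.92 on the log2 scale, and *Thbs1* and *Ccn1* of 0.911. *Tnc* ran against *Sparc* (-0.854) and *Thbs2* (-0.844). *Spon2* ran with *Spp1* (0.883) and against *Fn1* (-0.965). *Ccn1* and *Ccn2* had an r of -0.237. Among 10411 genes with a mean of at least 5 CPM, those most like *Postn* were *Scrn3* (0.965), *Kdm5a* (0.963) and *Prrx1* (0.956), whose GC contents are 41.5%, 43.3% and 43.6%. Most like *Spon2* were *Col6a1* (0.997), *Sash1* (0.993) and *Lama2* (0.993), and most like *Spp1* were *Nfib* (0.963), *Ssh2* (0.956) and *Trerf1* (0.954). *Sparc* was closest to *Stat3*, *Mxd4* and *Sulf1* (0.990 to 0.988), *Thbs1* to *Fst*, *Angpt4* and *Tgfbr2* (0.989 to 0.980), and *Fn1* to *Epb41l4a*, *Hspb1* and *Xirp1* (0.993 to 0.988). *Thbs2* was closest to *Brd9* itself (0.952), then *Ank1* and *Acot13*, *Tnc* to *Arnt2*, *Inip* and *Gins1* (0.953 to 0.934), *Ccn1* to *Gla*, *Tnfrsf1a* and *Clptm1l* (0.983 to 0.967), and *Ccn2* to *Stk38l*, *Emc3* and *Napg* (0.966 to 0.950).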

How the data were processed

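RNA was sequenced after removal of ribosomal RNA, as strand-specific paired-end libraries. STAR was used by the authors to place reads on mm10, with unique alignments kept, and featureCounts to assign fragments to genes. The deposited values are raw counts, not normalized, for 55291 gene symbols in 24 libraries. The authors also deposited 14 tables of their own comparisons (log2 fold changes and p-values), which were not used. Replicates were grouped by sample titles, because a treatment tag in the labels goes against them.

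Counts were tested in R 4.3.3 with the quasi-likelihood test of edgeR 4.0.16, TMM scaling and filterByExpr, with Benjamini-Hochberg adjustment over all genes tested. KD lines were set against scr on 4 libraries, metals against NT on the 6 libraries of a line, and differences of responses and pairs of KD lines on all 24. The SE is the log2 fold change over the square root of its F statistic. CPM carry TMM factors, and log2 CPM a prior count of 2. GC content and exon length came from GENCODE M21 for 53699 symbols. The correction fitted a spline (5 degrees of freedom) on both in each library as an offset. Alternatives were DESeq2 1.42.0, RLE factors, all genes with at least 1 count, 1 fit of all libraries, the replicate number as a block, and leaving out each library (60 refits). The test was also run on simulated counts with known changes. These held no GC trend between libraries and no shared deviations of replicates, so that run cannot vouch for calls that depend on either.

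Total counts set the precision and ran from 495778 to 75179394. Genes named beyond the 10 were, for each list and comparison, drawn from at most 3 genes that passed with the largest change, the 3 genes most like each member, and the targeted genes. The 10 genes and all lists were chosen with earlier results of these data known. Replicate numbers were not taken as pairs, and the fit without the block is the one reported.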

Additional observations from a re-analysis of the deposited data

Results flagged for a closer look

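A total of 6 differences between a KD line and scr in a metal response passed the test of the difference itself, as a contrast of the 2 responses in the fit of 24 libraries. For *Spp1* these were the Cu response in *Baf180* KD (-0.87, adjusted p = 0.0119) and the Zn responses in *Baf180* KD (-0.89, adjusted p = 0.00308), *Baf250a* KD (-1.15, adjusted p = 0.000456) and *Brd9* KD (-0.67, adjusted p = 0.039), all from edgeR. In the scr libraries *Spp1* rose with Zn by 0.94, and in the KD lines the Zn response of *Spp1* was -0.05, -0.27 and 0.18, none of which passed the test. *Ccn2* differed in its Zn response in *Baf180* KD (-0.44, adjusted p = 0.0481), and *Sparc* in that of *Baf250a* KD (0.53, adjusted p = 0.0302). The first was lost in 17 of 24 refits that each left out 1 library, and the second in 5 of 24 and after the GC correction (0.13, adjusted p = 0.596). Genes under 38% GC differed in the same Zn contrasts by a median of -1.49, -2.02 and -1.17, and the share of the *Spp1* differences that goes with GC content was not tested beyond the correction, after which they were -0.50, -0.68 and -0.37 (adjusted p = 0.0282, 0.00291 and 0.185) for Zn and -0.57 for Cu in *Baf180* KD. The GC content of *Spp1* is 43.3%, higher than in 17.8% of expressed genes.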

How the results depend on the processing

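Directions of genes that passed a test did not reverse in any alternative. The number of the 8 genes that passed changed by more than 1.5 times as follows. The share of all genes that passed under the same setting, which moved as well, is in brackets. With DESeq2 it was 2 for Zn in scr (24.4%), 1 for Zn in *Baf180* KD (0.905%) and 0 for Cu in *Baf250a* KD (0.333%). DESeq2 also gave 2 for Cu in *Brd9* KD (1.68%) and 1 for the Cu difference of *Baf250a* KD (0.115%). With all genes of at least 1 count it was 1 for Cu (2.57%) and 2 for Zn (12.8%) in scr. It was then 1 for Zn in *Baf180* KD (1.97%), 2 for Zn in *Baf250a* KD (8.6%) and 2 for Cu in *Brd9* KD (3.93%). The Cu differences of *Baf250a* KD and *Brd9* KD had 2 (1.03%) and 1 (2.82%). After the GC and length correction it was 1 each for Cu (6.64%) and Zn (0.0459%) in *Baf180* KD. It was also 1 each for Zn in *Baf250a* KD (13.5%) and Cu in *Brd9* KD (0.741%), and 0 for the Zn difference of *Brd9* KD (0.0847%). The fit of all 24 libraries gave 2 for Zn in scr (30.1%). In the untreated lines the correction added *Sparc* and *Ccn1* in *Baf180* KD (both 0.36, adjusted p = 0.0039 and 0.00652) and *Thbs1* in *Brd9* KD (0.33, adjusted p = 0.00587). The cause of these changes was not tested.

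Leaving out 1 library gave 3 to 5 genes for untreated *Baf180* KD, 0 to 2 for Zn in scr, 0 to 2 for Cu in *Baf180* KD, 0 to 2 for Cu and 0 to 1 for Zn in *Baf250a* KD, and, for the differences, 0 to 1 (Cu) and 1 to 2 (Zn) in *Baf180* KD, 1 to 2 (Zn) in *Baf250a* KD and 0 to 1 (Cu and Zn) in *Brd9* KD. *Spp1* lost its Zn difference in *Brd9* KD in 10 of 24 refits (adjusted p up to 0.261, without scr NT replicate 2). *Spp1* lost its Cu difference in *Baf180* KD without *Baf180* KD NT replicate 2 (0.0642) or Cu replicate 1 (0.0897), scr NT replicate 2 (0.126) or scr Cu replicate 2 (0.0552), and gained that of *Brd9* KD without scr NT replicate 1 (0.0467) or scr Cu replicate 1 (0.0379). *Sparc* lost its Zn difference without scr NT replicate 2 (0.115), scr Zn replicate 1 (0.0553) or 2 (0.11), or *Baf250a* KD NT replicate 2 (0.156) or Zn replicate 1 (0.272). With a lone library left in a group, its spread was taken from the other groups.

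With the replicate number as a block, 0 of the 8 genes passed for Zn in scr (0.0933% of all genes) and 1 for Zn in *Baf180* KD (4.31%). In the untreated lines 4, 7 and 4 passed (35.3%, 54.5% and 25% of all genes). Over all genes the block took the Zn response in scr from 2645 to 14 calls, but that in *Baf180* KD from 3 to 657 and the Cu response there from 2097 to 3892, where *Ccn2* with Zn (adjusted p = 0.00461) and *Thbs1* with Cu (0.0302) then passed. Deviations of same-numbered libraries correlated at 0.168 to 0.562 between the treatments of *Baf180* KD, and with both signs within scr (-0.489 to 0.416) and *Brd9* KD (-0.465 to 0.603), and at -0.045 to 0.103 within *Baf250a* KD. The labels tie the numbers to no shared culture or day. Same-numbered untreated libraries of scr and the KD lines deviated in opposite directions (r of -0.439, -0.179 and -0.572), and a pairing with the scr numbers crossed, chosen after seeing the data, called 7, 8 and 7 of the 8 genes and 8018, 8981 and 7415 of all genes.

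With 2 replicates, the spread is estimated across genes. Depth limits *Spon2* in scr and every value of *Baf250a* KD with Zn replicate 2.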
